A study of Canis lupus familiaris with 14 samples.

Results

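The bone and the primary osteosarcoma of 7 pet dogs were compared between dogs whose tumor lay in a hindlimb and dogs whose tumor lay in a forelimb. Limb was taken from the tumor site. Dog B, a Rottweiler, had a tumor of the distal femur and dog G, a Greyhound, one of the distal tibia, so the hindlimb group had 2 dogs. The forelimb group had 5 dogs, with 4 tumors of the distal radius (dogs A, C, E and F) and 1 of the proximal humerus (dog D). Dogs A and F were Golden Retrievers, C a Doberman Pinscher, D a Greyhound and E a Great Pyranees, as the breed is spelled in the sample labels. All 14 libraries of the series were used, 7 of bone and 7 of tumor. All dogs were adult pet dogs with naturally occurring disease, and the tissue was taken before any chemotherapy. Normal bone was the second phalanx of the amputated leg after removal of marrow, so bone and tumor of a dog came from the same limb but from different bones. The bone labels do not name the limb, which was inferred from the dog. Each library came from 1 piece of tissue of 1 dog, and a difference between limbs cannot be told apart from a difference between these particular dogs, their breeds or, in tumor, the bone in which the tumor grew.

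Fore- and hindlimbs arise from separate buds and keep different sets of active transcription factors. TBX5 is the T-box factor that starts the forelimb bud, while PITX1 is the homeobox factor that gives the hindlimb its form. The HOX genes, a family of clustered homeobox genes, mark position along the body and along the limb. Posterior genes of the HOXC cluster, such as HOXC10, are known from hindlimb development. In adult bone such genes may stay active in cells of the osteoblast lineage, and osteosarcoma is a tumor whose cells make bone matrix.

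Read counts per Ensembl gene ranged in total from 18650945 to 34479429 per library. The hindlimb libraries had 22564544 and 34177715 counts in bone and 29801335 and 31484267 in tumor. Bone B was shallower than every forelimb bone, and the other 3 lay within the forelimb range of their tissue. A single gene took between 1.71% and 29.5% of the counts of a library, and the 2 libraries above 26% were the bone and the tumor of dog E. Levels are given as CPM (counts scaled to a common library size), scaled by the trimmed mean of M-values (TMM), and 18516 genes passed the filter on low counts. In the bone libraries the first principal component of 500 variable genes held 42.8% of the variance, and on it the bone of dog B (score 66.1) was farthest from the other hindlimb bone, that of dog G (-22.0). The library of bone B also had the lowest RNA integrity of the series and the most detected genes, 23817 against 18504 to 21088 in forelimb bone. In tumor the first component held 26.0% of the variance, and dogs B (28.6) and G (36.9) had the highest scores, followed by the forelimb dogs E (23.2) and A (21.2). On the second component (24.3%) the hindlimb tumors lay apart, at -61.5 for B and 21.8 for G.

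**Figure D1:**
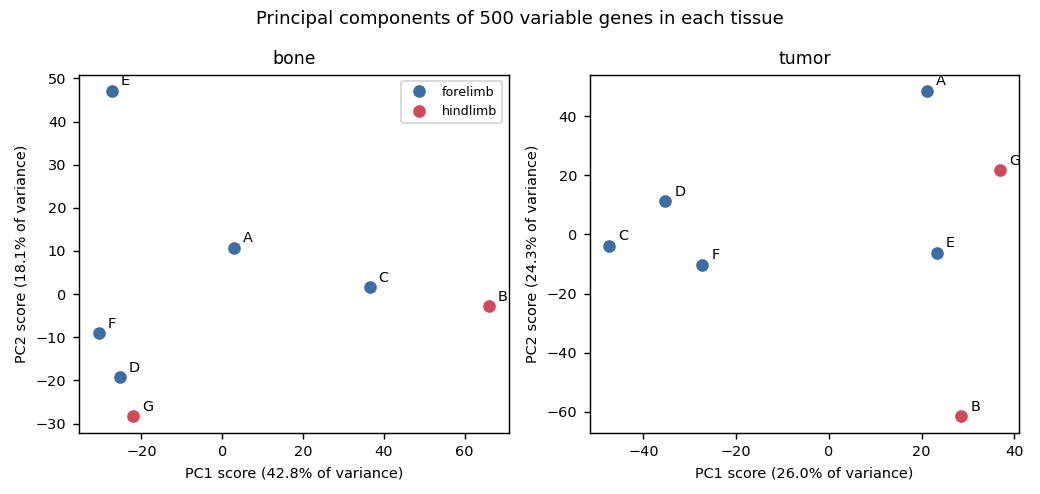
Scores of each library on the first and second principal components of the 500 most variable genes, in bone (left) and in tumor (right), with 1 letter for each dog, red for hindlimb and blue for forelimb. Bone of dog B (66.1 on the first component) and of dog G (-22.0) lie on opposite sides, while both hindlimb tumors have the highest first-component scores (28.6 and 36.9).

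The forelimb factor TBX5 (ENSCAFG00000009189) did not separate the limbs in bone. Its level was 23.1, 17.99, 14.6, 9.30 and 16.9 CPM in forelimb bone of dogs A, C, D, E and F, and 7.17 and 12.2 CPM in hindlimb bone of dogs B and G. Forelimb bone of dog E lay between the hindlimb values, so the groups overlapped, and phalangeal bone of the hindlimb still contained TBX5 transcripts in both dogs. The fitted log2 difference, hindlimb minus forelimb, was -0.77 ± 0.37 (SE, edgeR quasi-likelihood test, unadjusted p = 0.0736, FDR = 0.992). In tumor, TBX5 ranged more widely, at 2.66, 9.26, 0.255, 11.5 and 1.05 CPM in forelimb tumors A, C, D, E and F and 4.20 and 0.124 CPM in hindlimb tumors B and G. The lowest value was in a hindlimb tumor and the next lowest in the humeral tumor of dog D, and the other hindlimb tumor lay in the middle of the forelimb range (log2 difference -1.19 ± 1.57, FDR = 1). Without dog B that difference was -5.27 and without dog G -0.24, while in bone it stayed between -1.19 and -0.43 whichever dog was left out.

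The hindlimb factor PITX1 (ENSCAFG00000001065) separated the limbs in tumor and not in bone. Hindlimb tumors B and G had 23.4 and 37.3 CPM. Forelimb tumors A and F had 6.84 and 6.86 CPM, and C, D and E had 0.178, 0.191 and 0.381 CPM. The lowest hindlimb tumor thus exceeded the highest forelimb tumor by 1.63 on the log2(CPM + 1) scale, and 2 of 5 forelimb tumors nevertheless carried several CPM of this gene. The log2 difference was 3.39 ± 1.33 (unadjusted p = 0.0330, FDR = 1 over 18516 genes). In bone, PITX1 was near the detection limit, with 0.385, 0.364, 0, 0.0925 and 0.0480 CPM in forelimb bone A, C, D, E and F, where 3 counts correspond to 0.0721 to 0.139 CPM. Bone of dog B had 1.76 CPM, the highest bone value, whereas bone of dog G had 0.367 CPM, below forelimb bone A. Over both tissues the log2 difference was 3.96 ± 1.05 (limma, unadjusted p = 0.00218, FDR = 0.733). Limma averages the logs of single libraries, whereas edgeR compares fitted mean counts (2.55 in bone and 3.39 in tumor). The higher limma value therefore does not show a stronger difference over both tissues. An exact permutation test over 2 against 5 libraries has 21 assignments. With the smaller tail doubled, as was done here, its two-sided p cannot fall below 0.0952, which is the value reached by PITX1 in tumor. The same test gave 0.190 for PITX1 in bone, and for TBX5 0.190 in bone and 0.571 in tumor.

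Of 13 genes listed for limb type, 7 could be matched to an identifier, and these included 4 of 9 genes of the HOXC cluster. None passed the test in any comparison. HOXC10 (ENSCAFG00000006648), a posterior HOX gene, was found in tumor rather than bone. Forelimb tumors A, C, D, E and F had 5.20, 9.53, 6.88, 0 and 12 CPM, and hindlimb tumors B and G had 20.7 and 4.55 CPM. The highest tumor was a hindlimb tumor, but the other hindlimb tumor lay below 4 of 5 forelimb tumors (log2 difference 0.90 ± 1.33, FDR = 1). In bone no library exceeded 0.132 CPM of HOXC10. HOXC4 (ENSCAFG00000006611), an anterior member, separated the bones and not the tumors. In bone it had 1.20 and 2.40 CPM in hindlimbs B and G and 0.224, 0.727, 0.494, 0 and 0.192 CPM in forelimbs A, C, D, E and F, without overlap (log2 difference 2.42 ± 1.01, unadjusted p = 0.0431, FDR = 0.992). In tumor, dogs C (13.4 CPM) and D (25.2 CPM) of the forelimb group were above both hindlimb tumors, at 11.5 and 1.90 CPM. HOXC6 (ENSCAFG00000006622) also separated the bones, with 0.451 and 0.537 CPM in hindlimb against at most 0.298 CPM in forelimb, and overlapped in tumor, where dog D again was highest at 13.1 CPM. HOXC5 stayed at or below 0.254 CPM in every bone and reached 3.15 CPM in tumor D, with 1.05 and 0.289 CPM in hindlimb tumors. ISL1, an early hindlimb bud factor, was at or below 0.529 CPM in bone. In tumor its highest value was 5.96 CPM in forelimb dog F, against 2.13 and 0.537 CPM in hindlimb dogs B and G.

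**Figure D2:**
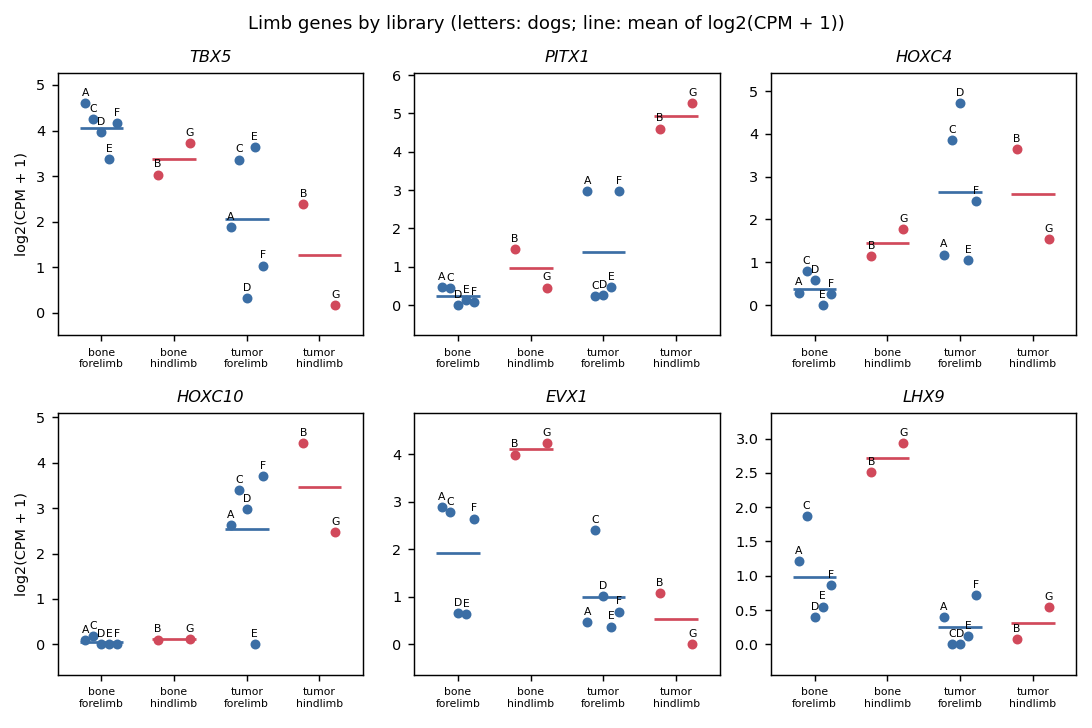
Levels of 6 limb genes in every library as log2(CPM + 1), with 1 letter for each dog, blue for forelimb and red for hindlimb, and lines at group means. Limbs overlap for TBX5 in both tissues, PITX1 separates in tumor only (hindlimb 23.4 and 37.3 CPM, forelimb at most 6.86 CPM), and HOXC4, EVX1 and LHX9 separate in bone only.

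Other limb genes were counted by list. From the HOXA cluster list with EVX1, 4 of 12 genes were matched, from the HOXD list 2 of 10 and from the HOXB list none of 10. EVX1 (ENSCAFG00000002971), a homeobox gene beside the HOXA cluster, separated the bones most widely of these. Hindlimb bone had 14.9 and 17.98 CPM, and forelimb bone A, C, D, E and F had 6.44, 5.92, 0.572, 0.555 and 5.26 CPM. The log2 difference was 2.12 ± 0.85 (unadjusted p = 0.0372, FDR = 0.992), and forelimb bones A, C and F lay well above D and E. In tumor, EVX1 was between 0 and 4.27 CPM and the limbs overlapped. HOXA13, the most distal HOXA gene of the limb, was at 7.998 and 8.06 CPM in hindlimb bone and 4.67 to 8.75 CPM in forelimb bone. Tumors, which lay higher in the leg than the phalanges, had 1.46 and 1.32 CPM in hindlimb and 0.0955 to 2.38 CPM in forelimb. The limbs overlapped for HOXA13 in both tissues.

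Of 67 listed limb patterning factors, 18 were matched, and none passed the test. In bone 2 of 18 separated the limbs with higher hindlimb values and 0 with lower, against 4.82% and 3.73% of all genes. LHX9 (ENSCAFG00000011339), a LIM homeobox factor of the limb bud, had the smallest p of the list in bone. Its level was 4.69 and 6.67 CPM in hindlimb bone and 1.31, 2.65, 0.312, 0.463 and 0.817 CPM in forelimb bone A, C, D, E and F (log2 difference 2.35 ± 0.70, unadjusted p = 0.00961, FDR = 0.992). In tumor, LHX9 was at most 0.639 CPM and the limbs overlapped. Higher and lower hindlimb values without overlap were found in tumor for 0 and 2 of 18 factors, against 3.52% and 2.97% of all genes, and these 2 were IRX5 and IRX3, neighboring Iroquois homeobox genes. IRX5 (ENSCAFG00000009443) had 2.73 and 3.802 CPM in hindlimb tumors and 19.4, 33.6, 7.61, 13.8 and 9.15 CPM in forelimb tumors A, C, D, E and F. Its log2 difference was -2.36 ± 0.69 (unadjusted p = 0.00858, FDR = 0.981). IRX3 had 10.7 and 20.8 CPM in hindlimb tumors and at least 24.8 CPM in forelimb tumors. The limbs overlapped in tumor for the other Iroquois genes of the list, IRX6 (log2 difference 1.57 ± 1.68) and IRX2 (-1.07 ± 1.35).

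Signals of limb growth were represented by 20 of 61 listed genes, none of which passed the test. In bone 1 of 20 (5%) separated with higher and 2 (10%) with lower hindlimb values, against 4.82% and 3.73% of all genes, so that the share with higher values was near that of all genes. The higher one was HHIP, an inhibitor that binds hedgehog ligands, at 2.74 and 4.07 CPM against 0 to 2.02 CPM. The lower ones handle retinoic acid. CYP26A1, which degrades it, had 2.93 and 1.81 CPM against 3.46 to 9.10 CPM (log2 difference -1.38 ± 0.47, unadjusted p = 0.0177, FDR = 0.992), and ALDH1A3, which makes it, had 16.9 and 16.2 CPM against 19.1 to 62.5 CPM. Other retinoic acid genes of the list did not follow, as the limbs overlapped in bone for CYP26B1 (log2 difference 0.54 ± 0.42) and RARB (0.02 ± 0.24). For CYP26A1 and ALDH1A3 the limbs overlapped in tumor, with log2 differences of 1.48 ± 1.96 and 0.69 ± 1.07. In tumor 0 of 20 separated with higher and 3 (15%) with lower hindlimb values, against 3.52% and 2.97% of all genes. With library totals in place of TMM, 2 separated with higher and 2 with lower values. FGFR3 (ENSCAFG00000014993), a receptor for fibroblast growth factors that restrains growth plate cartilage, had 18.3 and 21.7 CPM in hindlimb tumors. Forelimb tumors A, C, D, E and F had 47.6, 26.9, 100.4, 183 and 78.6 CPM (log2 difference -2.13 ± 0.73, unadjusted p = 0.0190, FDR = 1). FGFR1, a related receptor, was at 190 and 197 CPM against 271 to 461 CPM. BMP6, a bone morphogenetic protein, was at 12.7 and 19.05 CPM against 21.8 to 50.4 CPM. The smallest p of this list in tumor belonged to HHIP (log2 difference 8.45, unadjusted p = 0.00496, FDR = 0.981) and came from 1 library. Hindlimb tumor B had 51.1 CPM, while hindlimb tumor G and 4 forelimb tumors were at 0 and forelimb tumor A was at 0.444 CPM. Without dog B the direction was reversed, at -4.07.

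Few genes passed the test between limbs. In bone 1 of 18516 genes (0.0054%) was called at an FDR under 0.05 by edgeR, with a lower level in hindlimb, and 827 genes (4.47%) had an unadjusted p under 0.05. DESeq2, which gave an adjusted p for 18396 genes, called 25, and limma called 0. In tumor 0 genes (0%) were called by edgeR and 832 (4.49%) had an unadjusted p under 0.05, with 113 calls among 18051 genes by DESeq2 and 0 by limma. The mean difference over both tissues, fitted in limma with the dog as a block, gave 0 calls (0%) and 889 genes with an unadjusted p under 0.05, and edgeR on the summed counts of each dog gave 0. The difference between the limb difference of tumor and that of bone gave 0 calls by edgeR (0%), with 427 genes at an unadjusted p under 0.05 and 32 calls by DESeq2. The median log2 difference over all genes was -0.01 in bone and -0.05 in tumor.

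The gene called in bone, ENSCAFG00000018512, has no paired symbol. It had 4.62, 3.84, 3.90, 3.84 and 3.43 CPM in forelimb bone A, C, D, E and F and no count in hindlimb bone B and G, so it was at least 34.8-fold lower against the limit that a count of 0 allows (3 counts per library, at most 0.113 CPM). Its FDR was 0.0152. The call was lost without any 1 of the forelimb dogs (FDR = 0.0832 to 0.125), by limma (0.649) and with all 14 libraries in the fit (1). The gene did not follow limb in tumor, where the hindlimb dogs had 4.22 and 6.90 CPM and forelimb tumor E was at 0. A gene with the same on-or-off pattern in tumor, ENSCAFG00000040846, had the smallest tumor p. It had 71.5, 41.4, 22.2, 23.8 and 46.2 CPM in forelimb tumors A, C, D, E and F and no count in either hindlimb tumor, at least 331-fold lower (edgeR, FDR = 0.142). It was called in tumor by DESeq2 (FDR = 4.59e-12), with all genes of at least 1 count (0.0290) and with all 14 libraries in the fit (0.000221). All 7 bones, including those of dogs B and G (33.2 and 22.5 CPM), contained it, and its difference between tissues had the smallest FDR of that comparison, 0.0982 by edgeR. That difference was called by DESeq2 (FDR = 2.36e-10), with all genes of at least 1 count (0.0425) and without the dog as a term (0.000629). How reads were assigned to overlapping or near-identical genes is not given in the sources used here, so values of such on-or-off genes are uncertain.

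The limbs were next compared by overlap alone. A gene was counted as separating the limbs when both hindlimb libraries of a tissue lay above, or both below, all 5 forelimb libraries. In bone 893 genes (4.82%) separated with higher and 690 (3.73%) with lower hindlimb values. In tumor the counts were 652 (3.52%) and 549 (2.97%). In both tissues 51 genes (0.275%) separated with higher and 28 (0.151%) with lower hindlimb values, and 26 of 18516 genes separated in opposite directions. The 51 were 5.71% of the genes higher in hindlimb bone and 7.82% of those higher in hindlimb tumors. The 28 were 4.06% of the genes lower in bone and 5.10% of those lower in tumor. Of the 26, 19 were higher in hindlimb bone and lower in hindlimb tumors, and 7 the reverse. The 19 were 2.13% of the genes higher in bone and 3.46% of those lower in tumor. The 7 were 1.01% of the genes lower in bone and 1.07% of those higher in tumor. Bone and tumor came from the same dogs, so a gene that differs between dogs for any reason can separate in both tissues.

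The separations were narrow and mostly of low genes among those with higher values. No gene had a gap of 1 or more on the log2(CPM + 1) scale in both tissues. The smaller of the 2 gaps was at most 0.405 for the 51 and at most 0.285 for the 28. The mean level of a gene over the 14 libraries had a median of 0.837 CPM among the 51 genes and 26.7 CPM among the 28, and 30 of the 51 and 3 of the 28 lay under 1 CPM. A low gene can pass the filter on counts through the libraries in which it is high, so these counts are a description only. At a mean of at least 1 CPM, 21 genes separated with higher and 25 with lower values. With CPM of the library total in place of TMM scaling, which moved the median difference of bone by 0.125 toward higher hindlimb values, 72 genes separated with higher and 8 with lower values (90% higher, against 64.6% with TMM), and 41 of the 79 genes were shared.

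Of the 79 genes 11 had a symbol, and none of these 11 belonged to the limb type, HOX, patterning or signal lists. The others could not be looked up in lists of symbols. By level and gap, NDNF and ANK3 were the widest of the genes with lower values. NDNF (ENSCAFG00000004165), a secreted protein first known from neurons, had 70.1 and 61.9 CPM in hindlimb bone and 90.7, 129, 85.7, 286 and 160 CPM in forelimb bone A, C, D, E and F. Hindlimb tumors had 5.36 and 1.86 CPM and forelimb tumors 8.05, 75.5, 31.1, 44.3 and 455 CPM. The forelimb tumors of NDNF spread far more than its forelimb bones, with dog F highest. The log2 difference over both tissues was -2.52 ± 0.99 (limma, FDR = 0.944). ANK3 (ENSCAFG00000012694), which encodes an ankyrin that ties membrane proteins to the cytoskeleton, had 24.2 and 21.3 CPM in hindlimb bone and 29.1 to 52.6 CPM in forelimb bone. In tumor it had 2.18 and 1.40 CPM against 20.7, 11.4, 20.3, 6.73 and 4.53 CPM. Its log2 difference over both tissues was -1.61 ± 0.50 (FDR = 0.802). TRABD2A, a metalloprotease that cleaves Wnt proteins, had 6.57 and 2.26 CPM in hindlimb bone against 8.26 to 29.1 CPM, and 1.44 and 0.744 CPM in hindlimb tumors against 1.57 to 16.1 CPM. In both tissues dog G had the lowest value of these 3 genes.

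The 10 widest of the genes with higher hindlimb values and a mean of at least 1 CPM had no symbol. The widest was ENSCAFG00000018422, at 6.80 and 3.65 CPM in hindlimb bone against 0.0480 to 1.26 CPM, and 1.55 and 2.89 CPM in hindlimb tumors against 0 to 1.05 CPM. ENSCAFG00000042293 had the smallest p of all genes over both tissues (log2 difference 3.47 ± 0.60, unadjusted p = 5.73e-05, FDR = 0.368). It had 4.91 and 6.36 CPM in hindlimb tumors against 0.134 to 0.828 CPM, but only 0.413 and 0.622 CPM in hindlimb bone against 0 to 0.265 CPM.

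The other symbols among the separating genes were looked at after their values were seen. GLP1R, the receptor for glucagon-like peptide 1, had 8.86 and 2.52 CPM in hindlimb tumors against 0 to 0.445 CPM in forelimb tumors. In bone it was at 0.225 and 0.226 CPM in hindlimb, and among forelimb bones only that of dog F had any count, at 0.0480 CPM (log2 difference over both tissues 4.65 ± 1.02, FDR = 0.526). CELSR3, an atypical cadherin of planar cell polarity, had 1.01 and 0.735 CPM in hindlimb bone against at most 0.430 CPM and 1.96 and 2.40 CPM in hindlimb tumors against at most 1.54 CPM. FSTL4, a follistatin-like protein, had 8.45 and 6.49 CPM in hindlimb tumors against at most 3.30 CPM, whereas in bone B at 0.901 CPM barely exceeded forelimb F at 0.889 CPM. NPM2, SPATA17 and SBSN also lay higher and SLC1A2 and ABCD2 lower, with the smaller gap at most 0.116. SBSN (suprabasin), a protein of the epidermis, was the one gene matched of 13 keratinocyte markers. It had 134 and 243 CPM in hindlimb bone against 0.786 to 127 CPM in forelimb bone. The part of skin RNA in this difference was not tested. Of the 26 genes with opposite directions, the 3 with symbols were KAT2A, IFITM10 and GLS2, each higher in hindlimb bone and lower in hindlimb tumors. IFITM10, an interferon-induced transmembrane protein, had 105 and 71.3 CPM in hindlimb bone against 37.7 to 58.3 CPM, and 6.85 and 1.45 CPM in hindlimb tumors against 7.67 to 30.4 CPM (difference between tissues -2.90, unadjusted p = 0.00552, not called).

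**Figure D3:**
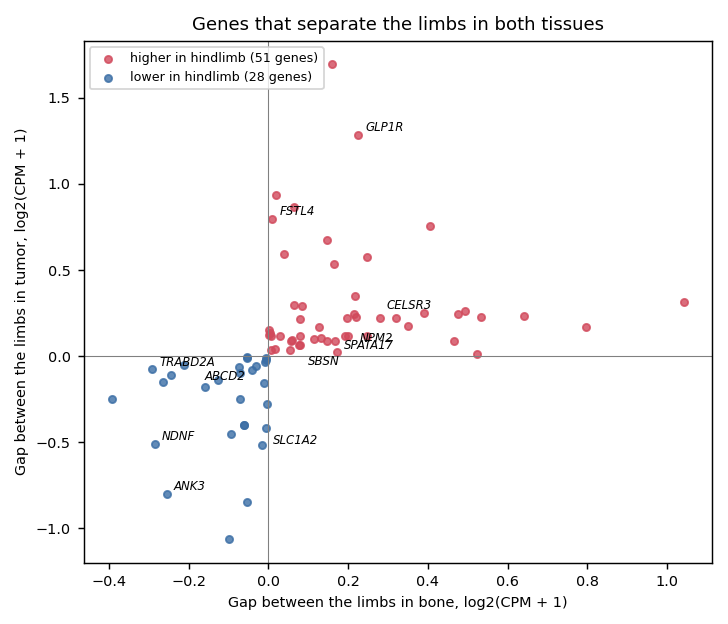
The 79 genes whose hindlimb and forelimb libraries do not overlap in both tissues, plotted by the gap between the nearest hindlimb and forelimb libraries in bone (horizontal) and in tumor (vertical), both on the log2(CPM + 1) scale, with symbols where paired. The 51 genes with higher hindlimb values are red and the 28 with lower values blue, and no gene reaches a gap of 1 in both tissues.

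Some markers of bone-forming cells separated the tumors with lower hindlimb values, and none passed the edgeR test. Of 12 listed osteoblast markers 4 were measured, and of 10 osteocyte markers 5. Of the 4 osteoblast markers, 3 separated the tumors with lower hindlimb values, and of the 5 osteocyte markers 2 did, against 2.97% of all genes and 3.66% of genes with a symbol. The median log2 difference was -2.49 for the osteoblast and -6.05 for the osteocyte markers, against -0.02 over genes with a symbol. PTH1R (ENSCAFG00000013600), the parathyroid hormone receptor of osteoblasts, had 22.6 and 36.7 CPM in hindlimb tumors B and G. Forelimb tumors A, C, D, E and F had 276, 431, 234, 323 and 114 CPM. The log2 difference was -3.22 ± 0.61 (edgeR, unadjusted p = 0.000682, FDR = 0.902). DMP1 (ENSCAFG00000009548), a matrix protein of osteocytes that governs mineralization and phosphate, had 2.21 and 2.23 CPM in hindlimb tumors against 21.7, 431, 100.3, 137 and 43.3 CPM. Its log2 difference was -6.05 ± 1.40 (unadjusted p = 0.00233, FDR = 0.981). PHEX, a peptidase of the same mineral pathway, had 0.607 and 0.579 CPM against 2.04 to 28.5 CPM. BGLAP, which encodes osteocalcin, had 52.6 and 36.0 CPM against 55.9 to 298 CPM. In contrast, SPP1, which encodes osteopontin, overlapped in tumor, with 887 and 196 CPM in hindlimb against 64.4 to 1270 CPM in forelimb. SOST and MEPE, further osteocyte genes, were at or below 0.580 CPM in both hindlimb tumors, but so were forelimb tumors D and F, and E was at 130 and 132 CPM. FGF23, the phosphate hormone of osteocytes, had a log2 difference of 0.75 ± 2.09 in tumor.

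In bone of the same dogs the limbs overlapped for PTH1R, DMP1, PHEX and BGLAP, although the fitted differences of all 4 osteoblast and all 5 osteocyte markers were negative there too (medians -0.88 and -1.89). For PHEX in bone the log2 difference was -1.89 ± 0.78 (edgeR, unadjusted p = 0.0405, FDR = 0.992). PTH1R had 435 and 210 CPM in hindlimb bone against 225 to 572 CPM, and DMP1 254 and 353 CPM against 225 to 1125 CPM. The difference between tissues was -2.78 ± 0.58 for PTH1R (unadjusted p = 0.00135) and -4.52 ± 1.13 for DMP1 (unadjusted p = 0.00386), and edgeR called neither among 18516 genes (FDR = 1), whereas DESeq2 called both (FDR = 0.00147 and 0.00386). For PTH1R it was -1.92 without dog B and -3.65 without dog G, and for DMP1 -5.04 to -3.95 whichever dog was left out. In bulk tissue, fewer cells of a type and less RNA per cell cannot be told apart. The summed level of the 5 osteocyte markers was 3.84 and 5.45 CPM in hindlimb tumors and 31.4 to 466 CPM in forelimb tumors, and that of the 4 osteoblast markers was 274 and 972 CPM against 294 to 1838 CPM. With library totals in place of TMM, 1 of 4 osteoblast and 2 of 5 osteocyte markers separated, while over all 18516 genes the tumors separated in either direction for 876 with library totals and 1201 with TMM.

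Further genes with small p in tumor were picked after their values were seen. CHST13 (ENSCAFG00000028530), a chondroitin sulfotransferase, had the smallest p in tumor of all genes with a symbol. It was at 0.690 and 1.49 CPM in hindlimb tumors and 38.1, 20.5, 37.2, 27.3 and 15.8 CPM in forelimb tumors A, C, D, E and F, a gap of 2.76 on the log2(CPM + 1) scale. The log2 difference was -4.68 ± 0.63 (unadjusted p = 5.81e-05, FDR = 0.362). In bone CHST13 overlapped, with 58.2 and 25.9 CPM against 20.3 to 131 CPM, and the difference between tissues was -4.20 (edgeR, unadjusted p = 0.00173, FDR = 1), which DESeq2 called (FDR = 0.00149). That difference was -3.10 without dog B and -5.35 without dog G. LRP4, a receptor that binds sclerostin, had 23.1 and 15.6 CPM against 57.8 to 231 CPM in tumor. WIF1, a secreted Wnt inhibitor, had 4.44 and 21.2 CPM against 185 to 8279 CPM in tumor, while in bone it was at 1800 and 1028 CPM against 1572 to 3198 CPM.

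Other genes were higher in both hindlimb tumors. AQP9, a water and glycerol channel of myeloid cells and liver, had 7.92 and 15.9 CPM against 0.508 to 2.07 CPM (log2 difference 3.17 ± 0.58, unadjusted p = 0.000514, FDR = 0.784). CXCL8, a chemokine that attracts neutrophils, had 51.7 and 161.8 CPM against 5.01 to 27.2 CPM. SLC11A1, a metal transporter of phagocytes, had 292 and 102 CPM against 22.6 to 69.4 CPM. CORO1A, an actin-binding protein of leukocytes, had 137 and 93.5 CPM against 33.8 to 69.9 CPM, and CXCR4, a chemokine receptor, had 87.1 and 35.5 CPM against 18.1 to 28.1 CPM. DESeq2 called, among others, AQP9, CXCL8, CHST13, LRP4, PTH1R, DMP1 and PHEX in tumor. The matched macrophage and neutrophil lists held 1 gene each (CD5L and MPO), and their limbs overlapped in tumor. CD5L was at 100.1 CPM in hindlimb tumor B and 0.537 CPM in G, against 0.145 to 35.6 CPM. The part of immune cells in the higher genes was not tested.

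**Figure D4:**
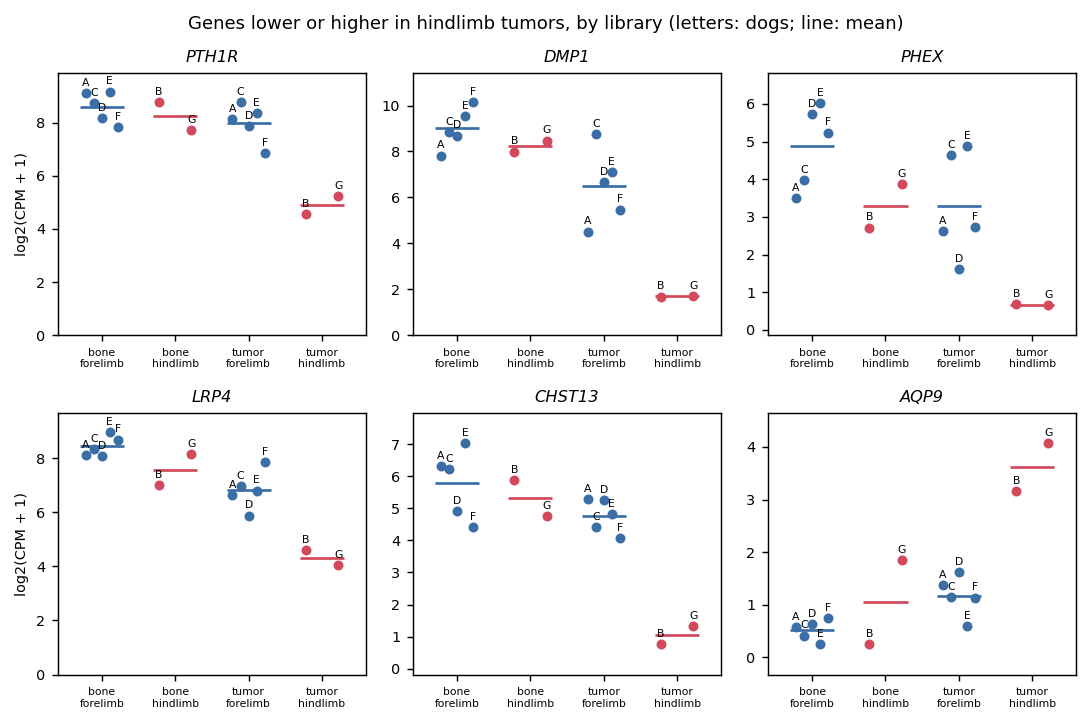
Levels of PTH1R, DMP1, PHEX, LRP4, CHST13 and AQP9 in every library as log2(CPM + 1), with 1 letter for each dog, blue for forelimb and red for hindlimb, and lines at group means. In tumor both hindlimb dogs lie below all 5 forelimb dogs for the first 5 genes (DMP1 2.21 and 2.23 CPM against at least 21.7 CPM) and above them for AQP9, whereas in bone the limbs overlap.

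In bone, some genes of cell division and of osteoclasts separated the limbs with lower hindlimb values, and none passed the edgeR test. Of 18 listed cell cycle genes 17 were measured, and 10 of them separated the bones with lower hindlimb values and 0 with higher, against 3.73% of all genes and 6.33% of genes with a symbol. The median log2 difference was -0.63, against -0.06 over genes with a symbol. The limbs overlapped for the other 7 genes, among them CENPE (-0.02), MCM2 (-0.13) and GTSE1 (-0.21). TOP2A (ENSCAFG00000016090), the topoisomerase of dividing cells, had 12.7 and 9.27 CPM in hindlimb bone B and G and 28.95, 22.4, 21.4, 23.1 and 25.2 CPM in forelimb bone A, C, D, E and F. The log2 difference was -1.15 ± 0.21 (edgeR, unadjusted p = 0.000621, FDR = 0.992). RRM2, a subunit of ribonucleotide reductase, had 6.72 and 5.57 CPM against 11.2 to 21.6 CPM (log2 difference -1.32 ± 0.32, unadjusted p = 0.00285), and MKI67, the proliferation marker Ki-67, had 5.97 and 9.53 CPM against 12.4 to 17.1 CPM. In tumor the limbs overlapped for all 17 genes. TOP2A had 166 and 209 CPM in hindlimb tumors against 67.1 to 427 CPM, and the summed level of the 17 genes was 1005 and 1006 CPM against 415 to 2266 CPM.

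Of 12 listed osteoclast genes 8 were measured, and 5 separated the bones with lower and 0 with higher hindlimb values, against 3.73% and 4.82% of all genes and 6.33% and 4.23% of genes with a symbol. The median log2 difference was -0.98, and no gene passed the test. TNFRSF11A (ENSCAFG00000000075), the receptor RANK through which osteoclasts are formed, had 20.4 and 29.3 CPM in hindlimb bone against 60.0, 43.6, 47.6, 37.3 and 53.4 CPM. Its log2 difference was -0.97 ± 0.25 (unadjusted p = 0.00475, FDR = 0.992). CALCR, the calcitonin receptor of osteoclasts, had 5.63 and 5.40 CPM against 8.50 to 18.1 CPM. The summed level of the 8 genes was 4207 and 4735 CPM in hindlimb bone and 5966 to 18689 CPM in forelimb bone. In tumor none of the 8 separated the limbs, although all 8 fitted differences were negative there too (median -1.50). SPP1, an osteoblast list gene that osteoclasts also make, was at 1880 and 1503 CPM against 2432 to 3672 CPM in bone. With library totals in place of TMM, 3 of 17 cell cycle and 1 of 8 osteoclast genes separated, while over all 18516 genes the bones separated in either direction for 1079 with library totals and 1583 with TMM. With dog B left out, 13 of 17 and 6 of 8 did, but dog G alone was then compared with the forelimb dogs and 6104 of all genes separated.

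Among the genes higher in hindlimb bone, GADD45G and GRIP2 were picked after their values were seen. GADD45G (ENSCAFG00000002174), a stress-induced gene that holds back cell division, had the smallest p in bone of all genes with a symbol. It had 95.3 and 67.0 CPM in hindlimb bone B and G. Forelimb bone A, C, D, E and F had 25.5, 31.8, 23.2, 34.6 and 25.0 CPM. Its log2 difference was 1.53 ± 0.21 (unadjusted p = 7.31e-05, FDR = 0.676). In tumor, hindlimb B had 19.9 CPM, inside the forelimb range of 8.31 to 24.7 CPM, and G had 44.1 CPM. GRIP2, a scaffold protein of glutamate receptors, had 18.1 and 15.97 CPM against 5.37 to 8.17 CPM in bone (log2 difference 1.35 ± 0.22, unadjusted p = 0.000240, FDR = 0.828) and overlapped in tumor. DESeq2 called TOP2A, GADD45G and GRIP2 in bone.

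**Figure D5:**
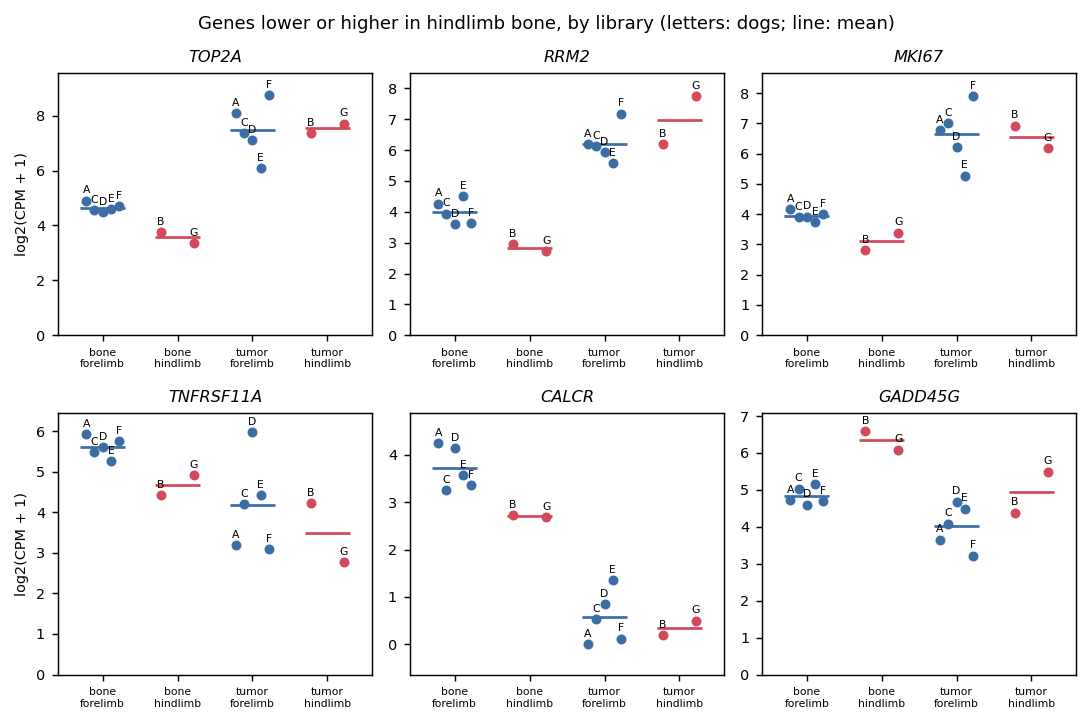
Levels of TOP2A, RRM2, MKI67, TNFRSF11A, CALCR and GADD45G in every library as log2(CPM + 1), with 1 letter for each dog, blue for forelimb and red for hindlimb, and lines at group means. In bone both hindlimb dogs lie below all forelimb dogs for the first 5 genes (TOP2A 12.7 and 9.27 CPM against at least 21.4 CPM) and above them for GADD45G, and in tumor the limbs overlap for TOP2A, RRM2 and MKI67.

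The remaining lists held few genes that separated the limbs. Of 9 measured adipocyte genes, 2 separated the tumors with lower hindlimb values, PLIN1 (0.773 and 1.03 CPM against 1.98 to 20.8 CPM) and CIDEC (0.110 and 0.0826 CPM, from 4 and 2 counts, against 0.116 CPM and above, a gap of 0.0075), both coats of fat droplets, against 2.97% of all genes and 3.66% of genes with a symbol, and 0 separated the bones. Their summed level was 87.7 and 137 CPM in hindlimb tumors and 94.8 to 270 CPM in forelimb tumors. Of 5 cartilage genes 1 separated the bones with lower and 1 the tumors with higher hindlimb values, against 3.73% and 3.52% of all genes. COL9A1, a collagen of cartilage, had 11.8 and 5.23 CPM in hindlimb bone against 14.7 to 27.6 CPM (log2 difference -1.18 ± 0.40, unadjusted p = 0.0175). CYTL1, a secreted protein of cartilage, had 0.166 and 0.165 CPM in hindlimb tumors (6 and 4 counts) against at most 0.127 CPM. SOX5, a factor of cartilage formation, overlapped in bone with a log2 difference of 1.29 ± 0.57 (unadjusted p = 0.0541). Muscle, tendon, erythroid, endothelial, Schwann cell and early response lists, with between 1 and 8 genes measured each, held no gene that separated the limbs in either tissue. The 2 endothelial genes summed to 129 and 158 CPM in hindlimb bone against 101 to 142 CPM, and the 6 early response genes to 1469 and 2662 CPM against 690 to 3132 CPM. No symbol was paired for the mitochondrially encoded list.

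Within the Greyhounds, dog G of the hindlimb and dog D of the forelimb could be set against each other as single values without a test. The difference of dog G minus dog D on the log2(CPM + 1) scale was 5.01 for PITX1 and -0.16 for TBX5 in tumor, and 0.45 and -0.24 in bone. It was -2.64 for PTH1R, -4.97 for DMP1 and -3.94 for CHST13 in tumor, and -1.12 for TOP2A, -0.68 for TNFRSF11A, 3.59 for EVX1 and 2.55 for LHX9 in bone. These had the direction of the group difference. HOXC10 in tumor did not, at -0.51.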

How the data were processed

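Polyadenylated RNA of bone and tumor from 7 dogs was sequenced in 14 libraries. The authors trimmed reads with Trimmomatic (0.39 in the submitters' processing notes), checked them with FastQC 0.10.1, mapped them with HISAT2 2.2.1 to CanFam3.1 and counted them with StringTie 1.3.3. The deposited values are raw read counts per Ensembl gene, without normalization, for 30951 genes, of which 27655 had at least 1 count. Strand and multi-mapping settings are not given in the sources used here. Symbols of 2292 genes (12.4% of those tested) were paired through identifier and symbol columns of those rows of the study's supplementary tables that were at hand in shortened copies, mostly of genes that differ between tumor and bone, and all others are without a name here. TBX4 and other unmatched genes were not analysed here. A few matched genes are not reported here, although list counts include them.

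Libraries were grouped by tissue and by limb of the tumor site. Genes were kept by filterByExpr (18516). Limb differences within each tissue were fitted by edgeR 4.0.16 (quasi-likelihood, TMM, R 4.3.3) on the 7 libraries of that tissue, the mean over both tissues by limma 3.58.1 (voom, dog as a block, consensus correlation 0.121), and the difference of the limb differences by edgeR with dog as a term. Fold changes are hindlimb minus forelimb, SEs of edgeR values were derived from the F statistic, and p-values were adjusted by Benjamini-Hochberg (FDR under 0.05). Bone and tumor are paired because they come from the same dog. Deviations from group means correlated within dogs between -0.121 and 0.150, over 0.1 in 2 of 7. In a group of 2 the deviations mirror each other, so dogs B and G necessarily share 1 value (-0.121). Gaps were taken on log2(CPM + 1). With 1 library per dog and tissue, p-values measure the spread between dogs and libraries together, and limits from counts of 0 cover counting error only. The scripts were tested on simulated data.

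The groups, markers and lists were chosen with earlier results of these data known. Genes were named by rule: all limb type and HOXC genes, called genes, the 10 widest separating genes per direction with a mean of at least 1 CPM (identifiers without a symbol were printed sparingly), and the 2 members with the smallest p of each cell type list described beyond its counts. Further genes, among them those named from the HOXA, patterning and signal lists, BGLAP, CYTL1, FGF23, HOXA13, KAT2A, SOST, MEPE, CD5L and those so described in the results, were chosen after their values were seen. DESeq2 1.42.0, limma voom, RLE scaling, other filters, fits without the block and the omission of each dog were the alternatives.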

Additional observations from a re-analysis of the deposited data

Results flagged for a closer look

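In the forelimb groups of 5 libraries, 78 combinations of a described gene and a tissue were checked for a single library far from the others, by the share of the range that its gap takes up (Dixon's ratio, critical value 0.71). Chance gives about 1 in 20 such flags, and 6 of 78 (7.69%) were found. HOXC10 was at 0 CPM in forelimb tumor E against 5.20 to 12 CPM in the others (ratio 0.711). CORO1A was at 69.9 CPM in forelimb tumor E against 33.8 to 40.9 CPM (0.739), and NPM2 at 0.648 CPM in forelimb bone E against 1.06 to 1.19 CPM (0.781). ENSCAFG00000018422 was at 1.26 CPM in forelimb bone C against 0.0480 to 0.256 CPM (0.763). HHIP in forelimb tumor A (0.444 CPM) and GLP1R in forelimb bone F (0.0480 CPM) were the only forelimb libraries of their tissue with any count of the gene (ratio 1 each).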

How the results depend on the processing

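With 2 hindlimb dogs, no call rests on more than those animals, and only 12.4% of tested genes had a symbol. Calls in bone numbered 25 by DESeq2, 0 by limma voom and 0 with all 14 libraries and no replicate block, and 0 to 5 when a dog was left out (5 without dog G). The called gene ENSCAFG00000018512 had FDRs of 0.0832 to 0.125 without 1 of the forelimb dogs, 0.649 by limma and 1 with all 14 libraries. Calls in tumor numbered 113 by DESeq2, 1 with all genes of at least 1 count and 1 with all 14 libraries, and 0 whichever dog was left out. Over both tissues there were 3 with all genes of at least 1 count and 0 to 45 without a dog (45 without dog G, 2 without dog B). Without the replicate block that pairs bone and tumor of a dog, this count stayed at 0, and that of the difference between tissues became 1. The latter was also 1 with all genes and 32 by DESeq2, and 0 whichever dog was left out.

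Genes separating the limbs in both tissues with higher hindlimb values numbered 21 at a mean CPM of at least 1, 0 at a gap of at least 1, and 81 to 720 without a dog (559 without B, 720 without G). Those with lower values numbered 25 at that mean, 8 with library totals, 0 at that gap of 1, and 45 to 418 without a dog (387 without B, 418 without G). The counts without B or G compare 1 hindlimb dog. Genes with an unadjusted p under 0.05 and lower values in tumor numbered 422 without B and 121 without G, against 266.

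For some of the described genes (FGF23, SOX5, CENPE, MCM2, GTSE1 and IFITM10, among others, were not included) 67 log2 differences were recomputed, and RLE scaling reversed none of these. Limma reversed those of HOXC6 (0.26), HOXC4 (0.0214) and TOP2A (0.0662) in tumor. The Greyhound pair reversed HOXC10 (-0.51) and TOP2A (0.59) in tumor. Leaving out a dog reversed 5 of these in tumor. The ranges were -0.57 to 1.61 for HOXC10, -0.85 to 0.28 for HOXC6, -2.28 to 0.44 for HOXC4, -0.43 to 0.22 for TOP2A and -4.07 to 12.5 for HHIP. The causes were not tested. Without a dog, PITX1 kept its sign, with 3.01 to 4.04 in tumor and 1.04 to 3.29 in bone. The counts of list members and of genes at an unadjusted p without each dog were alternatives added after seeing the data.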
